A study of Saccharomyces cerevisiae with 8 samples.

Results

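The genes described here encode the proteins of the small ribosomal subunit in Saccharomyces cerevisiae, budding yeast. They were found by name alone: every gene on the array whose standard name is RPS followed by a number was taken, which gave 56 of the 6225 genes on the array. Of these, 48 form 24 pairs of paralogues, written A and B, and 8 are single genes. Each gene was read by 1 probe, printed as 2 spots, and all 56 passed the filter on dim spots. The strain was S288C, the laboratory strain of the reference genome, and the labels give no other genotype and no treatment. Cells growing exponentially as a batch culture in minimal medium were taken at 16, 17, 19, 20, 21, 22, 23 and 24 h, with 1 array for each time, and their RNA carried the red dye Cy5. The green dye Cy3 carried RNA of S288C cells aged 64 h, the same reference each time, with no dye swap. All ratios below are log2 of Cy5 over Cy3, so a value above 0 is a higher level in the growing cells relative to other genes. The labels do not say whether the cultures were separate, and p-values therefore rest on the spread from array to array, which may be technical. RNA was labelled in equal mass, so a change in RNA per cell cannot be told apart from a change in a gene's share of it.

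The small subunit binds the mRNA and checks each codon against its tRNA, and every small subunit needs a copy of each of its proteins. In budding yeast most of the genes were kept as duplicates after an ancient duplication of the whole genome, and the A and B copies encode identical or almost identical proteins. Ribosomal protein genes as a class are transcribed through the factors Rap1, Fhl1 and Ifh1, are known to be among the most heavily transcribed genes of growing cells, and are turned down when growth stops. The coding sequences of many pairs are also alike, and whether each probe tells its paralogues apart was not tested, so values of a pair may be partly shared.

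Brightness set what could be measured. All 56 genes were well above background in both channels on all 8 arrays. Of their 112 spots, 48 to 63 per array had reached the ceiling of the scanner in Cy5, against 0 to 6 in Cy3. A gene is called saturated on an array below when at least 1 of its spots was at the ceiling. By that count 25 genes were saturated in Cy5 on all 8 arrays, 7 on some arrays and 24 on none. The share saturated on all 8 was 44.6% of these genes and 1.88% of the 5650 genes tested. Where Cy5 is at the ceiling, the measured ratio lies below the true one, so such a gene gives only a lower limit. Where Cy3 also reached its ceiling on an array, the measured values are printed but no fold or limit is read from them. The 2 spots of a gene differed by a median of 0.12 in log2 ratio, and 95% of these differences were at most 0.50.

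Arrays lay on 2 slides, each scanned in its own session. The arrays at 17, 20 and 21 h made up slide 2, and the other 5 arrays made up slide 1. In the authors' deposited table, the columns for 20 h and 24 h each fitted the scanner file of the other time. Across 5582 genes, each centred within its slide, those files correlated at 0.97 and 0.93 with the other's column and at -0.49 and -0.39 with their own. The other 6 files matched their own columns best, at 0.63 to 0.98. This does not touch means over the arrays, and results over time are therefore given in 3 ways. On the mean over all arrays, HXT2, a glucose transporter gene, stood at 5.90 ± 0.07 (SE, n = 8) and HSP12, a stress gene, at -4.18 ± 0.37. HSP12 ran from -6.21 to -1.86 and was saturated in Cy3 on 3 arrays, where the measured ratio lies above the true one. On the 6 arrays whose files matched their own columns, HSP12 rose by 0.41 per h (limma, adjusted p = 0.0024). With times as recorded its slope did not pass.

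The first comparison asked how growing cells differed from cells aged 64 h. Of the 56 genes, 47 were higher in growing cells, 6 were lower and 3 did not pass the test (limma, Benjamini-Hochberg adjusted p below 0.05 over all genes tested). Over all genes tested, 40.3% were called higher and 42.6% lower. The median log2 ratio of the 56 genes was 0.75, against -0.02 over all genes. With the scanner software's own ratios the split was 43 higher and 7 lower, and with each array centred on its median it was 56 higher and 0 lower. The genes called lower, RPS2, RPS3, RPS15, RPS23B and RPS26A among them, are the 6 genes with Cy5 at its ceiling on all 8 arrays and Cy3 at its ceiling on some. For them the call has no settled direction.

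Of the 31 genes that were below the Cy5 ceiling on at least 1 array, 30 were higher and 0 lower, and RPS9A did not pass. Among all genes not saturated throughout in either channel, 40.5% were called higher and 42.2% lower. The median of the 31 was 1.05, and their means ran from 0.07 to 1.51. The sign of each of the 31 means stayed the same in all 18 settings tried, but not all of these could change it. Dropping the time term, averaging all probes and lifting the filter on dim spots return the same means. Leaving out saturated spots could not change the 24 genes never saturated, and other settings only left out 1 array each. The medians of these genes by array ran from 0.69 on the array recorded at 20 h to 1.20 on that recorded at 17 h.

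**Figure D1:**
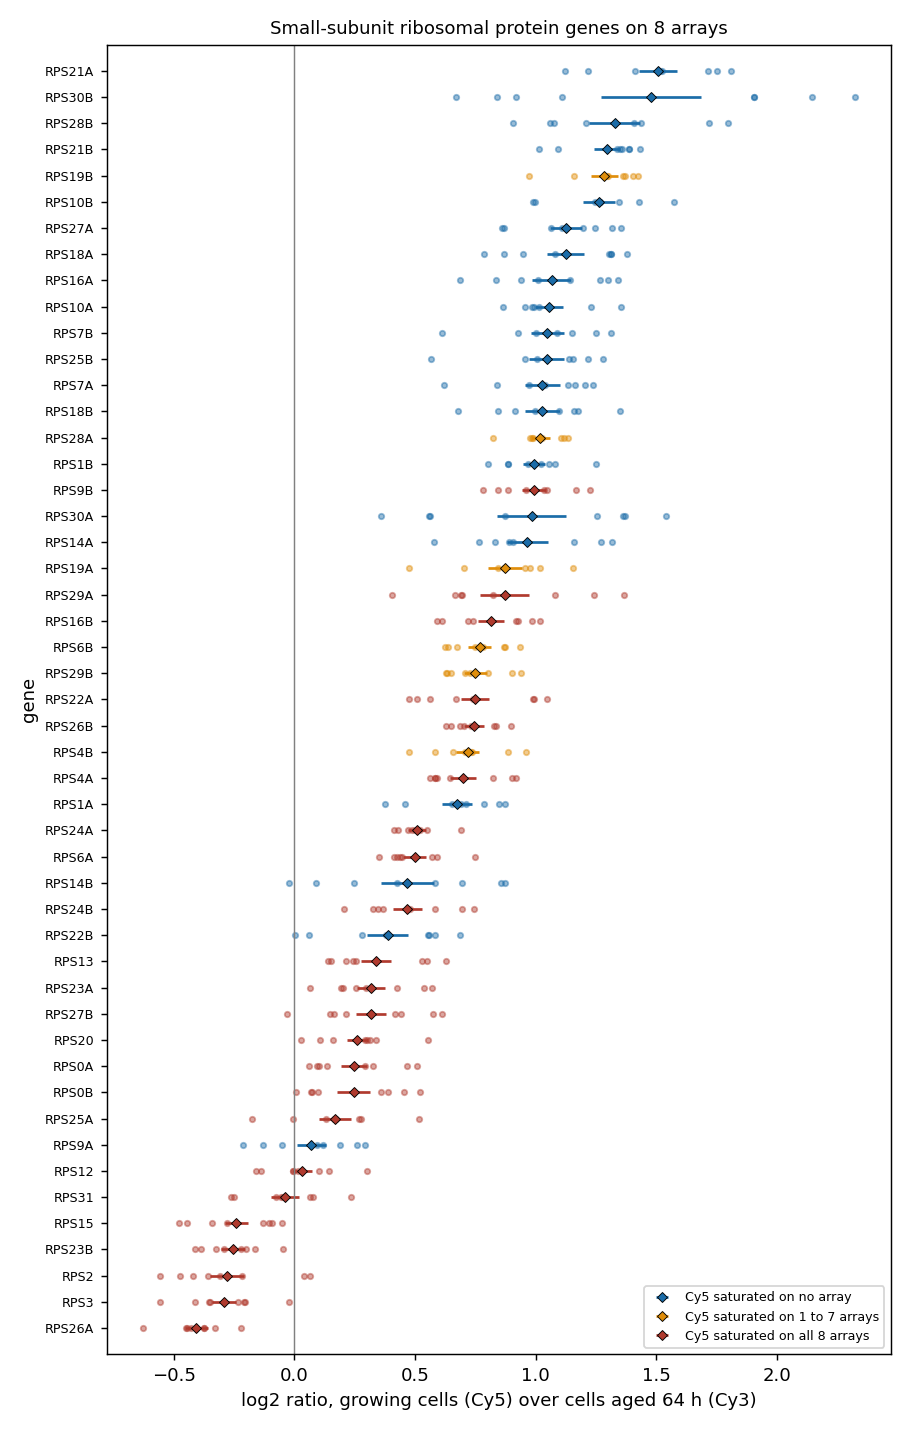
Each row is 1 of 49 of the 56 genes, ordered by its mean. Small points are the log2 ratios on the 8 arrays and diamonds the means with their SE; colour gives on how many arrays Cy5 was saturated. The lowest rows are genes saturated on all 8 arrays, other such genes lie as high as RPS9B at 0.99, and among the remaining genes RPS9A is the lowest at 0.07.

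RPS21A had the highest mean with loess. Its protein sits beside Rps0 on the platform side of the subunit. Its log2 ratio ran from 1.12 through a median of 1.52 to 1.81, with a mean of 1.51 ± 0.08 (SE, n = 8), or 2.84-fold (adjusted p = 1.21e-07). The mean was 1.62 with the scanner's ratios and 1.91 with median centring, so the fold holds for loess only. All 8 arrays lay well above 0, and the lowest was the array recorded at 20 h. The partner gene RPS21B also stood near the top, from 1.01 through 1.35 to 1.43, with a mean of 1.29 ± 0.05 (adjusted p = 2.65e-08).

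RPS30B, which encodes a small basic protein of the subunit's shoulder, had a mean of 1.48 ± 0.21 (SE, n = 8; adjusted p = 9.97e-05). It spread more than any other of the 56 genes, with an SD of 0.66. Its values were 2.15 at 16 h, 0.92 at 17 h, 1.91 at 19 h, 0.67 at 20 h, 1.11 at 21 h, 1.90 at 22 h, 0.84 at 23 h and 2.32 at 24 h. The arrays recorded at 16, 19, 22 and 24 h were thus high and the other 4 were low, with no value in between. RPS30A split the arrays the same way, at 1.36, 1.37, 1.25 and 1.54 on those 4 arrays and at 0.36 to 0.87 on the others, with a mean of 0.98 ± 0.14. The 4 high arrays were all on slide 1 and the low ones were the 3 of slide 2 and that recorded at 23 h. Slide means were 1.82 and 0.90 for RPS30B, and the slide term, a test added after the data were seen, gave an adjusted p of 0.094 (limma over all genes). Of the 56 genes, 3 passed for that term, RPS4A, RPS13 and RPS29A, each saturated on all 8 arrays, against 7.13% of all genes tested.

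RPS28B, whose mRNA is known to be destabilised by its own protein through the decapping factor Edc3, ran from 0.91 through 1.31 to 1.80, with a mean of 1.33 ± 0.10 (adjusted p = 1.63e-06). Its mean was higher on slide 2, with slide means of 1.14 and 1.64. RPS19B, for a protein of the subunit's head that is needed to mature its RNA, ran from 0.97 through 1.33 to 1.42, with a mean of 1.29 ± 0.06 (adjusted p = 3.69e-08), and was saturated on 4 arrays, where its ratio is a lower limit.

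At the low end stood RPS9A, whose protein helps set the accuracy of decoding and whose intron is known to take part in the control of its level. Its values ran from -0.21 through 0.11 to 0.29, and its mean of 0.07 ± 0.06 (SE, n = 8) did not pass the test (adjusted p = 0.29). The arrays lay on both sides of 0. It passed with the scanner's own ratios, at 0.18, and with median centring, at 0.27.

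RPS22B encodes a protein that binds early to the RNA of the subunit, and its unspliced mRNA is a known substrate of the nuclease Rnt1. It ran from 0.00 through 0.47 to 0.69, with a mean of 0.39 ± 0.08 (adjusted p = 0.0019). On slide 2 alone the mean was 0.24 and did not pass (adjusted p = 0.069). RPS14B, whose splicing is known to be repressed by its own protein, ran from -0.02 through 0.50 to 0.87, with a mean of 0.47 ± 0.11 (adjusted p = 0.0029). The array recorded at 16 h was its lowest and the only one below 0.

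Of the other genes at the low end, RPS1A and RPS4B were above 0 on every array. RPS1A, for a protein near the exit of the mRNA channel, ran from 0.38 through 0.70 to 0.87 (mean 0.67 ± 0.06; adjusted p = 5.59e-06). RPS4B, for a protein of the body of the subunit, ran from 0.48 through 0.72 to 0.96 (mean 0.72 ± 0.05; adjusted p = 6.42e-07) and was saturated on 4 arrays. RPS1A was lowest on the array recorded at 16 h and RPS4B on that recorded at 20 h.

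All 8 single genes were saturated in Cy5 on all 8 arrays, so none of them has a measured ratio. Among their products are Rps2 and Rps3, at the entry of the mRNA channel, with Rps15 and Rps20 of the head, Rps12, Rps13 and Rps31, which is made as a fusion to ubiquitin. RPS13 ran from 0.14 through 0.25 to 0.63, which sets the growing cells at least 1.26-fold higher with loess; with the scanner's ratios the mean of RPS13 was 0.04 and did not pass (adjusted p = 0.55). RPS20 ran from 0.03 through 0.30 to 0.55, or at least 1.20-fold higher with loess. With the scanner's ratios the mean of RPS20 was 0.16. RPS13 and RPS20 lay above 0 on all 8 arrays with loess.

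RPS12 ran from -0.16 through 0.004 to 0.30, with a limit of at least 1.02-fold with loess, and did not pass the test (adjusted p = 0.48). With the scanner's ratios the mean of RPS12 was -0.09, so that limit holds for loess only. RPS31 ran from -0.26 through -0.05 to 0.23, and its limit lay below equal signal, so no fold is given (adjusted p = 0.54). Their arrays fell on both sides of 0 at the ceiling of the red channel. Other single genes were also saturated in Cy3, RPS2 on 5 arrays, RPS3 on 2 and RPS15 on 2. RPS2 measured -0.56 to 0.06 with a median of -0.34, and RPS3 measured -0.56 to -0.02 with a median of -0.29. RPS15 measured -0.48 to -0.05 with a median of -0.21. These lie below 0 on most or all arrays with both channels at or near the ceiling, and with median centring their means lay between 0.52 and 0.57.

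Among the paralogues, 17 genes were saturated in Cy5 on all 8 arrays. The highest lower limit was that of RPS9B, at least 1.99-fold higher in growing cells. RPS29A, for a small zinc-binding protein of the head, stood at least 1.83-fold and RPS16B, whose protein reaches the tRNA in the P site, at least 1.76-fold higher. RPS22A and RPS26B each stood at least 1.68-fold higher. A limit of 1.62-fold for RPS4A followed. RPS24A, RPS6A and RPS24B stood at least 1.42-fold, 1.41-fold and 1.38-fold higher; Rps6 is the protein of the subunit that is phosphorylated in response to nutrients. Lower limits between 1.12-fold and 1.25-fold were left for RPS23A, RPS27B, RPS0A, RPS0B and RPS25A. RPS23B, whose protein lines the decoding centre, measured -0.41 to -0.05 with a median of -0.26, and RPS26A, whose protein touches the mRNA upstream of the exit, -0.63 to -0.22 with a median of -0.40; Cy3 was saturated on 1 and 4 arrays. These limits hold for loess only. With the scanner's ratios the mean of RPS25A was -0.12, and those of RPS0A, RPS0B and RPS27B were 0.03, 0.05 and 0.11, and none of the 4 passed. The larger limits were also lower with the scanner's ratios. The means of RPS9B, RPS29A and RPS4A were 0.87, 0.62 and 0.50 there, against 0.99, 0.87 and 0.70 with loess.

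Genes of the large subunit were counted in the same way. Of 80 such genes, 71 were higher and 6 lower, with a median of 0.92 and 25 saturated in Cy5 on all 8 arrays. Among genes never saturated, the median was 1.05 over 24 small-subunit and 1.06 over 37 large-subunit genes, given as a description with no test.

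Regulators of ribosomal protein genes went both ways. Of 11 listed, 3 were higher in growing cells, 5 were lower and 3 did not pass, with a median of -0.11; of all genes tested, 40.3% were called higher and 42.6% lower, so these counts show nothing particular to the list. RAP1, for the main activator, stood at 0.22 ± 0.08 (adjusted p = 0.023), ABF1, for a general promoter factor, at 0.24 ± 0.07 (adjusted p = 0.013) and SCH9, for a kinase that promotes growth, at 0.15 ± 0.05 (adjusted p = 0.023). Those lower in growing cells included repressors of ribosomal protein or ribosome biogenesis genes: CRF1 at -1.65 ± 0.05, DOT6 at -1.24 ± 0.06 and STB3 at -0.54 ± 0.04, with adjusted p-values of 5.09e-09, 6.52e-08 and 1.85e-06. The activator genes SFP1, at -0.51 ± 0.07 (adjusted p = 0.00013), and FHL1, at -0.11 ± 0.04 (adjusted p = 0.036), were lower too. Some sizes moved with the scaling: CRF1 stood at -2.94 and SCH9 at 0.27 with the scanner's ratios, and DOT6 stood at -0.76 with median centring. FHL1 stood at -0.06 with the scanner's ratios and -0.30 with median centring. IFH1, HMO1 and TOD6 did not pass, at -0.05, -0.01 and -0.11.

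Chaperones of single small-subunit proteins and late assembly factors were mostly higher. Of 14 listed, 11 were higher in growing cells, 0 lower and 3 did not pass, with a median of 0.50, where 40.3% of all genes were called higher and their median was -0.02. EMG1, for a methyltransferase of the subunit's RNA, stood at 1.38 ± 0.07 (adjusted p = 9.98e-08), and FAP7, for the partner of Rps14, at 1.18 ± 0.08 (adjusted p = 6.53e-07). DIM1, for another RNA methyltransferase, stood at 1.14 ± 0.11 (adjusted p = 6.36e-06) and TSR2, for the chaperone of Rps26, at 1.03 ± 0.09 (adjusted p = 5.03e-06). The chaperone gene of Rps3, YAR1, did not pass at 0.15, nor did NOB1, for the nuclease that cuts the last precursor RNA, at 0.15, nor BUD23, for a further RNA methyltransferase, at 0.14. Of 2 other proteins bound to the subunit, STM1, for a factor of resting ribosomes, was higher at 0.64 ± 0.06 (adjusted p = 5.30e-06), with Cy5 saturated on 2 arrays, and ASC1 was saturated in Cy5 on all 8 arrays and in Cy3 on 3.

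The second comparison asked whether the A and B genes of a pair differed in how far they were above the 64 h cells. The difference of the log2 ratios, A minus B, was taken within each array. It compares ratios and not levels, so it does not say which gene makes more mRNA. Of the 24 pairs, 11 had no gene saturated on all 8 arrays and could be tested, and 7 of these 11 passed (limma over all A and B pairs on the array, adjusted p below 0.05). Of all 33 such pairs that could be tested, 75.8% passed, and of the 22 that are not RPS pairs 81.8% did. All but COX5 and NHP6 of the 60 pairs fitted are ribosomal protein genes, so this background is mostly large-subunit pairs and not yeast paralogues in general. The share among the RPS pairs was thus not above that of mostly large-subunit pairs. The ratio of the B gene was higher in RPS1, RPS10, RPS19, RPS28 and RPS30, and that of the A gene in RPS14 and RPS21.

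**Figure D2:**
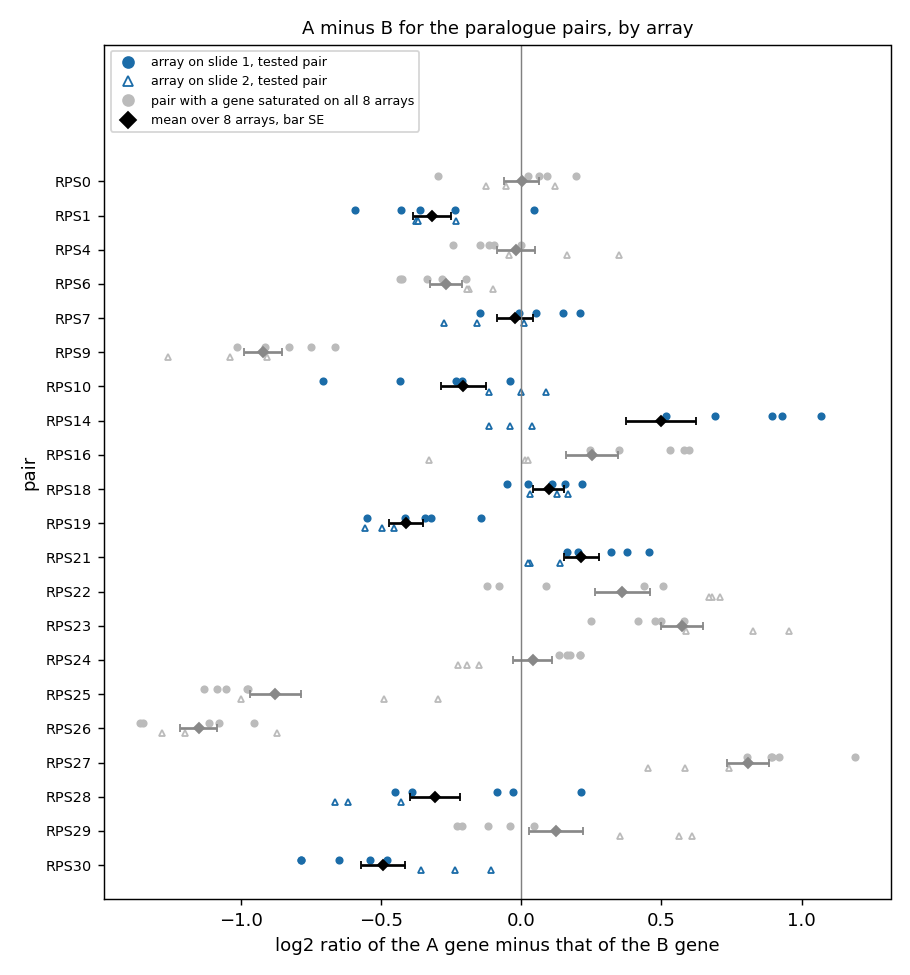
A minus B of the log2 ratio for 21 of the 24 pairs, with 1 point for each array (filled circles for slide 1, open triangles for slide 2) and the mean with its SE. Coloured points are pairs that could be tested, grey points those with a gene saturated on all 8 arrays; RPS30 and RPS19 lie below 0 on all 8 arrays, and RPS14 lies between 0.52 and 1.07 on slide 1 and near 0 on slide 2.

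RPS30 had the widest called gap in favour of B. RPS30A had a mean of 0.98 and RPS30B of 1.48. A minus B ran from -0.79 to -0.11, with a mean of -0.49 ± 0.08 (SE, n = 8; adjusted p = 4.23e-05), and B was higher on 8 of 8 arrays. The gap was wider where both genes were high. Its slide means were -0.65 and -0.23, and the slide term passed (adjusted p = 0.011, limma over all pairs). It passed for 3 of the 11 tested pairs, RPS14, RPS28 and RPS30, and for 27.3% of the 33 testable pairs. Pairs with a gene saturated on all 8 arrays are outside these counts. Among those RPS pairs the slide term also had an adjusted p below 0.05 in RPS16, RPS22, RPS23, RPS24, RPS25, RPS27 and RPS29, though not in all of them.

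RPS19 followed, with means of 0.87 for A and 1.29 for B. RPS19A ran from 0.47 through 0.91 to 1.15. A minus B ran from -0.56 to -0.14, with a mean of -0.41 ± 0.06 (SE, n = 8; adjusted p = 1.82e-05), and B was higher on 8 of 8 arrays. Each gene was saturated on 4 arrays. On the 3 arrays with no saturated spot in either, the mean was -0.37 and still passed (adjusted p = 0.012).

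RPS14 was the widest called gap in favour of A, and it was not the same on both slides. RPS14A ran from 0.58 through 0.90 to 1.32, against -0.02, 0.50 and 0.87 for RPS14B. Their difference was 0.93 at 16 h, -0.04 at 17 h, 0.89 at 19 h, -0.12 at 20 h, 0.04 at 21 h, 0.69 at 22 h, 0.52 at 23 h and 1.07 at 24 h. The A gene was higher by at least 0.52 on each slide 1 array, and the paralogues lay within 0.12 of each other on slide 2. The mean over the 8 arrays was 0.50 ± 0.13 (adjusted p = 0.0022), made of 0.82 on slide 1 and -0.04 on slide 2, and the slide term passed (adjusted p = 1.39e-04, limma over all pairs). The exact sign-flip permutation test (two-sided, smallest possible p of 0.0078 for 1 pair) gave p = 0.055, or 0.075 after adjustment.

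RPS1 and RPS21 had narrower called gaps. RPS1A stood at 0.67 and RPS1B at 0.99, and A minus B ran from -0.59 to 0.05 with a mean of -0.32 ± 0.07 (adjusted p = 5.36e-04). B was higher on 7 of 8 arrays, and the array recorded at 23 h was the exception. In RPS21 the A gene was higher on 8 of 8 arrays, by 0.02 to 0.45, with a mean of 0.21 ± 0.06 (adjusted p = 0.0062). On slide 2 alone that mean was 0.06 and did not pass (adjusted p = 0.38).

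RPS28 and RPS10 were called but depended on the processing. RPS28A stood at 1.02 and RPS28B at 1.33, with a mean A minus B of -0.31 ± 0.09 (adjusted p = 0.0061) and B higher on 7 of 8 arrays. RPS28A was saturated on 6 arrays, where its ratio is a lower limit, so the gap in favour of B may be overstated there; on the 2 arrays without a saturated spot, recorded at 16 h and 20 h, the difference was 0.21 and -0.43. With median centring the mean was -0.07 and did not pass (adjusted p = 0.57), and on slide 1 alone it was -0.15 and did not pass (adjusted p = 0.15), against -0.57 on slide 2. For RPS10, in the beak of the subunit, the means were 1.06 for A and 1.26 for B. A minus B was -0.21 ± 0.08 (adjusted p = 0.029), and with median centring it was -0.004 (adjusted p = 0.99). The call was also lost when the array recorded at 16, 19, 22 or 24 h was left out, with adjusted p-values of 0.052 to 0.084.

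The other 4 tested pairs did not pass. RPS7 had the smallest gap, with means of 1.03 and 1.05 and a difference of -0.02 whose 95% interval ran from -0.16 to 0.11. RPS7A ran from 0.62 through 1.09 to 1.24 and RPS7B from 0.61 through 1.07 to 1.31. The sign of that gap turned with the scaling, from -0.12 with the scanner's ratios, which passed (adjusted p = 0.039), to 0.13 with median centring. RPS18 had a difference of 0.10 with an interval from -0.02 to 0.21. RPS18A was nevertheless the higher gene on 7 of 8 arrays.

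**Figure D3:**
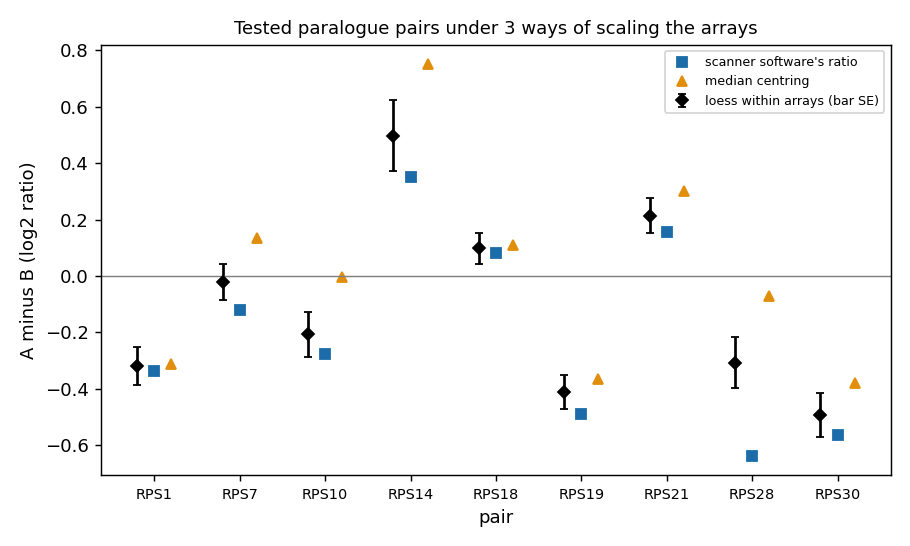
A minus B of the log2 ratio, as the mean over 8 arrays, for 9 of the 11 tested pairs under loess (diamonds with SE), the scanner software's ratio (squares) and median centring (triangles). RPS1, RPS19, RPS21 and RPS30 stay on their side of 0 under each scaling, whereas RPS7 changes sides and RPS10 moves to -0.004.

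In the 13 remaining pairs the ceiling hides at least 1 gene. The direction of the mean gap could still be read where the saturated gene was also the higher one and its partner was saturated on no array. No such pair was given a call. In RPS9, RPS9B at 0.78 to 1.23, with a median of 1.00, was saturated and RPS9A, at -0.21 to 0.29, was not. B was higher on 8 of 8 arrays by at least 0.67, with a mean gap of at least 0.92 ± 0.07, or 1.90-fold, with loess. In RPS22 the A gene was saturated and stood at least 0.36 ± 0.10 above B on average with loess, with slide means of 0.17 and 0.69. It lay above B on 6 of 8 arrays. On the arrays recorded at 22 h and 24 h, A minus B measured -0.08 and -0.12, so no direction can be read there. The sizes of the mean gaps depend on the scaling and their directions did not. With the scanner's ratios the mean gap was 0.68 in RPS9 and 0.17 in RPS22, and with median centring 1.47 and 0.66.

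For several pairs a wide measured gap carries no direction. RPS27A, for a zinc-binding protein of the platform side, was never saturated and ran from 0.86 through 1.15 to 1.35, while RPS27B was saturated and ran from -0.03 through 0.31 to 0.61. The measured gap was 0.81, and it was 1.15 with the scanner's ratios and 0.25 with median centring. RPS25B, whose protein serves initiation at internal entry sites, ran from 0.57 through 1.09 to 1.28, against -0.18, 0.17 and 0.52 for the saturated RPS25A, a measured gap of -0.88. In both pairs the saturated gene is the one that measured lower, so the true gap is smaller or reversed. RPS16 was of the same kind, at 0.25, with slide means of 0.46 and -0.10. RPS4, RPS6 and RPS29, in which the other gene was saturated on 4, 6 and 5 arrays, measured -0.02, -0.27 and 0.12. Slide means had opposite signs in RPS4, at -0.12 and 0.16, and in RPS29, at -0.11 and 0.51. RPS4A ran from 0.56 through 0.62 to 0.92.

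In RPS0, RPS23, RPS24 and RPS26 both genes were saturated on all 8 arrays, and their measured gaps of 0.002, 0.57, 0.04 and -1.15 compare limits. Slide means had opposite signs in RPS24, at 0.18 and -0.19, and in RPS0, at 0.02 and -0.02. For RPS0, whose protein is needed late in the making of the subunit, A ran from 0.06 through 0.21 to 0.51 and B from 0.01 through 0.23 to 0.52. RPS23A ran from 0.07 through 0.28 to 0.57 and RPS26B from 0.63 through 0.72 to 0.90.

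The third comparison asked whether the ratios changed over the hours of growth. With times as recorded, 0 of the 56 genes passed (limma, smallest adjusted p = 0.71), and over all 5650 genes 0 passed either. An unadjusted p below 0.05 was seen for 5 of the 56, all falling, and the like share of all genes is not given here. On the 6 arrays not in dispute, 0 passed (smallest adjusted p = 0.074). In that fit 8 of the 56 had an unadjusted p below 0.05, of which 7 fell, and 638 of all 5650 genes fell at that level. The 7 of 56 are thus near the share over all genes. In that fit 3.17% of all genes were called falling and 5.2% rising. With the 2 files exchanged, 4 of the 56 fell, a share below the 8.58% of all genes that were called falling. Of the 31 genes below the ceiling on some array, 22, 24 and 25 had slopes below 0 in the 3 fits, passed or not.

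**Figure D4:**
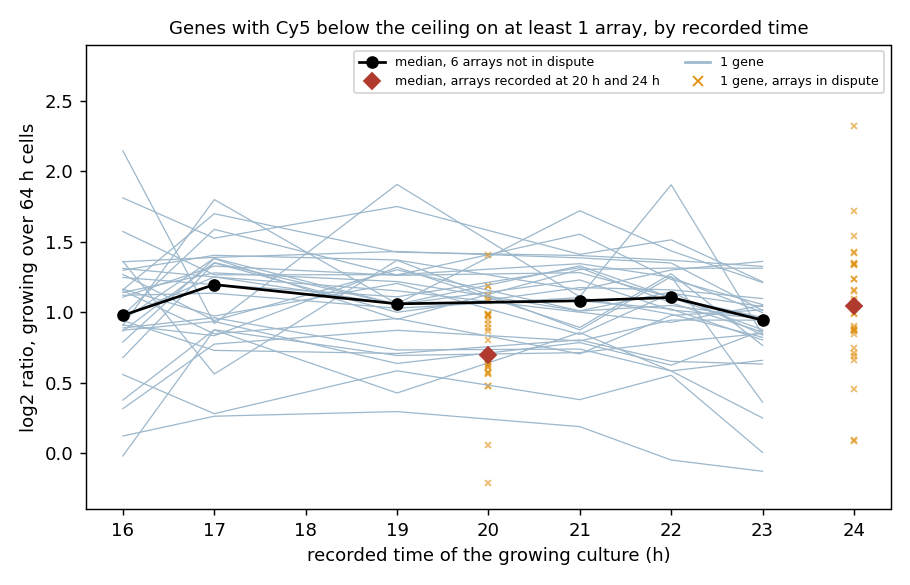
Log2 ratio against recorded time for the 31 genes that were below the Cy5 ceiling on at least 1 array. Lines join the 6 undisputed arrays, crosses are the arrays recorded at 20 h and 24 h, and large symbols are medians; the median is lowest on the array recorded at 20 h, at 0.69, and highest at 17 h, at 1.20.

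The 4 genes that fell with the files exchanged were RPS21A, RPS7B, RPS25B and RPS4B, by 0.07, 0.07, 0.06 and 0.05 on the log2 scale per h (slopes of -0.07 ± 0.02, -0.07 ± 0.02, -0.06 ± 0.02 and -0.05 ± 0.01 SE, with adjusted p-values of 0.030, 0.016, 0.043 and 0.025). RPS4B was saturated on the 4 arrays recorded at 19, 22, 23 and 24 h, where the ceiling holds its ratio down, so its slope may be off. In this fit the array recorded at 24 h stands at 20 h, and the one recorded at 20 h, not saturated for RPS4B, stands at 24 h. RPS21A, RPS7B and RPS25B were saturated on none. On the 6 arrays the slopes of RPS21A, RPS7B, RPS4B and RPS25B were -0.06, -0.05, -0.04 and -0.04 and did not pass. Each of the 4 genes was lowest on the array recorded at 20 h, at 1.12, 0.61, 0.48 and 0.57 in the same order. The exchange places that disputed array last, at 24 h, and how far the falls rest on it was not tested.

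The 6 smallest p-values on the 6 arrays had adjusted values of 0.074 to 0.138, and RPS12, RPS7B, RPS21A, RPS4B and RPS20, all with slopes below 0, were among them. With slide as a block in this fit, 3 of the 56 genes fell, against 9.1% of all genes, and 2 rose, RPS18A among them. The share of all genes that rose is not given here, so the rising count cannot be read as a result about these genes. RPS12 and RPS20 were saturated on all 8 arrays, and their slopes are not read. The array recorded at 20 h was the lowest for 14 of the 31 genes, that recorded at 16 h for 9 and that recorded at 23 h for 6. The array recorded at 17 h was the highest for 15 of them. No such counts over all genes are given here, so these only describe the 31 genes.

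In the authors' deposited table, with its own column times, 25 of the 56 genes had a falling slope that passed and 0 a rising one, against 18.5% falling and 15.9% rising of its 5609 genes. Of the 25, 12 were saturated in Cy5 on all 8 arrays. RPS25B had a slope of -0.09 per h there (adjusted p = 0.0069) and RPS4B one of -0.08 (adjusted p = 9.36e-04), both fitted here with limma on the authors' deposited table. For the difference between paralogues no change over time passed: 0 of the 11 tested pairs passed in any of the 3 fits, with smallest adjusted p-values of 0.98, 0.70 and 0.54, and 0, 0 and 1 pairs had an unadjusted p below 0.05.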

How the data were processed

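Per the file headers, the arrays were read by Agilent Feature Extraction 10.5.1.1, on a design annotated on sacCer2. The authors deposited its output, with the intensity of each spot in both channels. The deposited files also give the scanner's log10 ratio, with flags for saturated, outlier and dim spots. The authors' deposited table holds log2 values centred per gene; their normalization is not given in the sources used. For the values reported, median signals were corrected with normexp (offset 50) and normalized by loess within each array in limma 3.58.1 under R 4.3.3. Outlier and control spots were dropped, and both spots of a probe were averaged. Testing required 4 or more arrays with signal well above background in either channel, which 5650 genes had. Symbols came from RefSeq's table for R64, which matched 5737 of 6225 names; its build is not that of the design, and coordinates are left out. A line on centred time gave the mean ratio and the slope. The mean does not carry the spread of the aged cells and holds any dye bias. Paralogue differences were fitted over all 60 A and B pairs on the array. Adjusted p-values are Benjamini-Hochberg values with a threshold of 0.05. The number of arrays limits the precision. Fits were tested on simulated data.

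The genes, lists and tests were chosen with earlier results of these data known. Named by array are the 8 single genes, the 6 highest and 6 lowest genes below the ceiling, genes called lower, both genes of the 8 pairs with the widest and the 3 with the narrowest difference, and the 6 genes with the smallest slope p on the 6 arrays not in dispute; other genes are named where a count or a limit calls for it. Bounds are means of the loess ratios with saturated spots at their value. A few genes under this rule are not reported here and are not drawn in the plots. Probe and promoter sequences were not analysed here.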

Additional observations from a re-analysis of the deposited data

Results flagged for a closer look

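RPS25B had a log2 ratio of 0.566 on the array recorded at 20 h, far below its other 7 values by Dixon's test. It was the only one of 42 groups of values tested that stood out so; chance alone marks about 1 in 20 such groups.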

How the results depend on the processing

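With median centring 0 of the 56 genes were called lower; on slide 2 alone 2 were, and with saturated spots left out 0 of the 32 genes that remained, of which 31 were higher. On slide 2 alone 4 pairs passed, and RPS14 turned to -0.040. For slopes, 4 genes fell with the 2 files exchanged and 25 in the authors' deposited table, where the slope of RPS19B turned to -0.054 (adjusted p = 0.019). With slide as a block, 3 fell and 2 rose on the 6 arrays, where 9.1% of all genes fell and the rising share is not given. With slide as a block and the files exchanged, 9 fell, where 13.3% of all genes did. The cause of these shifts was not tested. Leaving out each array in turn gave 46 to 47 genes higher, 6 lower, 30 of the 31 below the ceiling higher, 0 falling or rising and 6 to 8 pairs called. RPS1, RPS19 and RPS30 were called in all 17 settings tried for pairs and RPS21 in 16. Averaging all probes was among these 17 and could not change a difference, as each gene had 1 probe. Leaving out arrays with a saturated spot could not change RPS1, RPS21 or RPS30 either. The exact sign-flip test left RPS10 and RPS28 uncalled (adjusted p = 0.057 each) and called RPS18 (adjusted p = 0.048). RPS28 could not be fitted on arrays with no saturated spot. No paired analysis was possible because the arrays form 1 group. Signal at the scanner's ceiling limits 25 of the 56 genes.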
